A study of Mus musculus with 12 samples.

Results

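The inhibitory and Fc receptors of B cells were followed through 10 named genes of the 56941 in the count table. Fcgr2b, Fcmr, Fcrla, Fcrl1 and Fcrl5 belong to the Fc receptor and Fc receptor-like families, Cd22, Siglecg and Cd72 encode lectin-like receptors, Pirb encodes a receptor for MHC class I, and Ptpn6 encodes the phosphatase SHP-1, through which several of them act. The genes were chosen by name, with earlier results of these data known. All 10 passed the filter on low counts that left 15148 genes for testing. RNAseq had been made from B cells sorted in bulk from the peritoneal cavity (PerC) of mice, in 4 groups of 3 libraries: B2 and MemB, each from control and from KI mice.

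KI mice carried Cd21Cre and the Cre-dependent allele R26 LSL-Gpr34Q340X-IRES-GFP, which expresses a truncated, gain-of-function form of the lysophosphatidylserine receptor GPR34 together with GFP from the Rosa26 locus. Cd21Cre acts in mature B cells, and not every B cell of a KI mouse expresses the allele. The sort is described by IgD and IgM alone, and whether GFP was also used was not given in the sources used here. Controls were littermates, and whether they carried either allele was not given in the sources used here, nor were the ages of single mice. B2 were sorted as IgD+IgM+ and MemB as IgD-IgM-, so the MemB gate takes every B cell without both surface immunoglobulins. Replicates were labelled as biological. Each library held between 29895031 and 39732039 counts, of which ribosomal RNA took between 29.3% and 38.3%. Gpr34, which checks the genotype labels, lay between 3.42 and 30.8 normalised CPM (counts scaled to library size, with TMM factors) in the 6 control libraries and between 100.3 and 168 in the 6 KI libraries. Of the genes that define B cells, Ms4a1 (CD20) averaged between 713 and 809.5 CPM over the 4 groups and Cd79a between 502 and 574, and neither these nor Cd79b and Pax5 were called in any of the 6 comparisons. Mast cell transcripts, summed over 7 markers, reached 253 CPM in control MemB replicate 3, 45.1 in control MemB replicate 1 and 77.0 in KI B2 replicate 3, against 0.838 to 2.86 in control B2. The calls of the 10 named genes are therefore also given without each of these libraries. Calls of other genes, mast cell genes included, are given for the full fit only.

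As background, most inhibitory receptors of B cells carry an immunoreceptor tyrosine-based inhibitory motif (ITIM) in their cytoplasmic tail. Lyn phosphorylates it when the receptor is brought next to the B cell receptor, and the motif then recruits SHP-1 or the lipid phosphatase SHIP-1, which dampen signalling. CD22 and Siglec-G bind sialic acids, often on the same cell, and Siglec-G is known for restraining B-1 cells, the innate-like B cells that are abundant in the PerC. FcγRIIB binds IgG in immune complexes, and the product of Fcmr is the receptor for the Fc portion of IgM.

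Fcmr and Siglecg were called in KI MemB, and Fcrl1 in MemB against B2, so their proximal promoters are shown. The sequences are the sense strand 5′ to 3′ on GRCm39, from the RefSeq promoter table (built on GRCm38.p6, each window found at a single place on GRCm39), and they end at the base before the GENCODE M39 gene start. Capitals mark AGGAAG or its reverse complement CTTCCT, a core bound by ETS factors such as PU.1.

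Fcmr, chr1:130793264-130793405, + strand: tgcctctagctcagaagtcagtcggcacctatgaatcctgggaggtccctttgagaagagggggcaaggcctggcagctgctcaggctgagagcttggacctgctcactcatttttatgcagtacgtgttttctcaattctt
Siglecg, chr7:43057413-43057627, + strand: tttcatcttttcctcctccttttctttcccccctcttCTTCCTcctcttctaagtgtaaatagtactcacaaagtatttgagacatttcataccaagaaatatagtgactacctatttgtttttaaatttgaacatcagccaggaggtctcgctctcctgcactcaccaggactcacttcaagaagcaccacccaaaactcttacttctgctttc
Fcrl1, chr3:87283444-87283633, + strand: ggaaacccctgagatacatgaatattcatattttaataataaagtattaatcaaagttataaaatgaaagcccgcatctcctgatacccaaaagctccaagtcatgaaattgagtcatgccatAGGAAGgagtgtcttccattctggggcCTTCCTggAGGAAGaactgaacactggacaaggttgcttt

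The Fcrl1 stretch holds the motif 3 times, the Siglecg stretch holds it 1 time and the Fcmr stretch 0 times. In the full window of 250 bases before the RefSeq start, read on both strands, 6 of the 10 genes hold AGGAAG (Fcrl1, Fcrl5, Siglecg, Cd72, Pirb and Ptpn6), as do 29.5% of 32841 promoters of the same length. Siglecg has 2 windows in that table and was counted because the one shown holds the motif, while the other, with its start site at chr7:43057704, holds it 0 times. The E-box CAGGTG is in 4 (Fcrla, Cd22, Pirb and Ptpn6) and in 17.2% of promoters. The octamer ATGCAAAT is in 0 of the 10 and in 1.60% of promoters. None of these motifs can overlap a different motif of the list, and a match says only that the letters are there.

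Fcmr (chr1:130793406-130808528, + strand, protein coding) encodes the Fc receptor for IgM. Its B2 libraries had 332.1, 269.3 and 230.5 CPM in control mice (replicates 1 to 3) and 214.5, 257.0 and 234.3 in KI mice, and its MemB libraries 314.7, 242.0 and 227.9 in control and 87.4, 109.3 and 153 in KI mice. The 3 KI MemB libraries lay below the other 9. In MemB, the mean was 117 ± 33.6 CPM in KI against 262 ± 46.6 in control (SD, n = 3), and Fcmr fell 2.24-fold in KI (log2 fold change -1.16, SE 0.25, 95% interval -1.67 to -0.66, edgeR quasi-likelihood test with Benjamini-Hochberg adjusted p = 0.0263).

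Siglecg (chr7:43057628-43067782, + strand, protein coding) encodes the ITIM-bearing Siglec-G. B2 of control mice had 432.9, 326.2 and 363.6 CPM and B2 of KI mice 339.6, 302.3 and 369.4, while MemB had 384.3, 233.3 and 413.5 in control and 110.4, 202.5 and 172.0 in KI mice. Again every KI MemB library lay below the other 9, the nearest being control MemB replicate 2. The mean was 162 ± 46.9 CPM in KI MemB and 344 ± 96.7 in control MemB, and Siglecg fell 2.13-fold in KI (log2 fold change -1.09, SE 0.24, 95% interval -1.58 to -0.59, edgeR adjusted p = 0.0354).

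**Figure D1:**
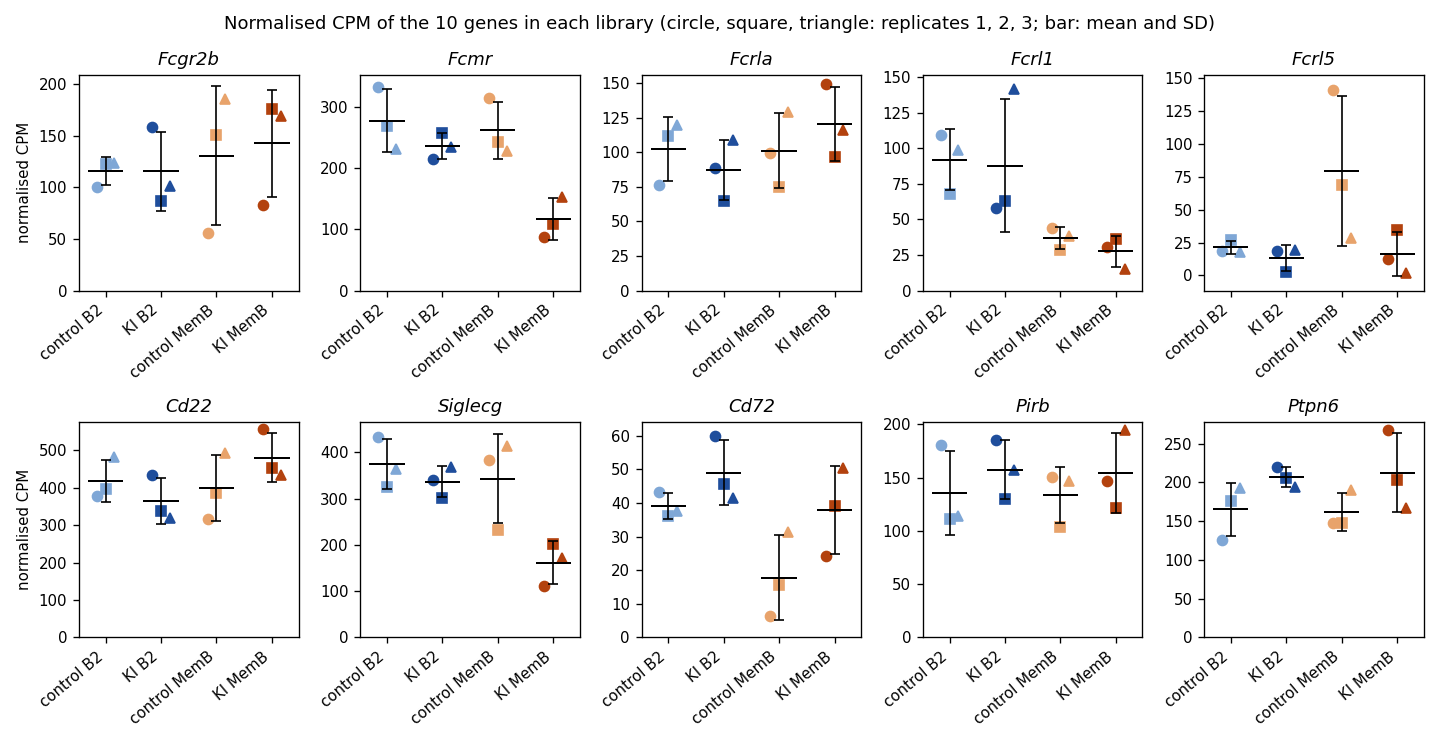
Normalised CPM (y axis, from 0 except for Fcrl5, whose SD bar reaches below 0) of each gene in the 12 libraries, with 1 panel per gene and 1 column per group. Symbols are libraries and the black lines are group means with SD; Fcmr and Siglecg in KI MemB lie below their other 3 groups, and Fcrl1 is lower in both MemB groups than in both B2 groups.

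These were the 2 genes called of the 10 in KI against control MemB, where 0.284% of all genes tested were called (43 of 15148) and 0.205% were called lower. A call needed an adjusted p below 0.05 together with a log2 fold change beyond 1 in either direction. KI libraries lay below control libraries without overlap for the same 2 genes, against 6.08% of all genes in that direction, and 3 of the 10 had an unadjusted p below 0.05 against 11.1% of all genes. DESeq2 called both, with adjusted p = 0.00421 for Fcmr and 0.0182 for Siglecg. A non-robust edgeR fit called neither (adjusted p = 0.0759 and 0.128), nor did a fit of the MemB libraries only (0.150 and 0.213). Siglecg was also lost in edgeR with the replicate block (adjusted p = 0.0570) and with upper-quartile normalization (0.0578). The median log2 fold change was 0.17 over the 10 genes and -0.03 over all genes tested. Calls of both rested on few libraries: without control MemB replicate 3, which held the most mast cell transcripts, Fcmr had a log2 fold change of -1.25 and edgeR adjusted p = 0.0285, while Siglecg had -0.93 and adjusted p = 0.200. Without control MemB replicate 1 or KI MemB replicate 1, neither was called (adjusted p = 0.174 for both, and 0.235 and 0.316). Without KI B2 replicate 3, which enters only through the shared fit, both remained called (adjusted p = 0.0340 and 0.0390). Fcmr was also lost without replicate 2 of control or KI MemB (adjusted p = 0.0664 and 0.107), and Siglecg without KI MemB replicate 3 (0.0963).

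Other transcripts moved with these falls. B-1 markers, summed over 8 genes, lay between 705 and 807 CPM in control MemB and between 513 and 622 in KI MemB, with no overlap, and 1 of the 8 was called (Ighv11.2, a heavy chain variable gene typical of B-1 cells, log2 fold change -5.63, edgeR adjusted p = 0.000222). T and NK cell markers, summed over 10 genes, were at 103 to 142 CPM in control MemB and 9.65 to 52.7 in KI MemB, and 1 of 8 tested was called (Nkg7, -6.47, adjusted p = 0.0374). Mast cell markers, at 1.53 to 253 CPM in control MemB and 0.879 to 1.88 in KI MemB, overlapping, had lower means in KI for 4 of 4 tested, with a median log2 fold change of -5.96, and 1 was called (Cma1, mast cell chymase, -6.40, adjusted p = 0.0374). Plasma cell markers, 8 genes, summed to 409 to 650 and 447 to 588 CPM, overlapping, and 1 was called higher (Jchain, 3.80, adjusted p = 0.00495). The sum covers genes that moved in both directions: 5 had higher and 3 lower means in KI MemB, with a median log2 fold change of 0.63. At an unadjusted p below 0.05 there were 3, against 11.1% of all genes. Jchain and Sdc1 (6.81, overlapping) were higher and Irf4 (-0.56, without overlap) was lower. Ighm and Ighd, the transcripts of the sort gate, fell in KI MemB by 2.46 and 1.35 on the log2 scale (edgeR adjusted p = 4.81e-11 and 9.39e-05). In the paper's flow cytometry, B-1 cells (IgD-IgM+) and plasma cells were gated apart from MemB. The part of any of these cells or transcripts in the levels of Fcmr and Siglecg was not tested. In bulk RNA, fewer cells that express a gene and less RNA per cell cannot be told apart.

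Fcrl5 (chr3:87343080-87407985, + strand) encodes an Fc receptor-like protein of B-1 and marginal zone B cells. Relative to their mean, its replicates spread the most of the 10 in every group except control B2. They were at 18.9, 26.8 and 18.2 CPM in control against 18.5, 2.30 and 19.1 in KI for B2, and 141.4, 69.0 and 28.4 in control against 12.7, 34.5 and 2.02 in KI for MemB. KI and control MemB overlapped through KI replicate 2 and control replicate 3. The log2 fold change in MemB was -2.28 (SE 0.79, 95% interval -3.90 to -0.65) and was not called (edgeR adjusted p = 0.320). DESeq2 gave an adjusted p of 0.0786, and edgeR without the filter on low counts gave 0.0394. Leaving out 1 library at a time moved the log2 fold change from -3.43 (without KI MemB replicate 2) to -1.55 (without control MemB replicate 1), with edgeR adjusted p between 0.106 and 0.536.

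Cd72 (chr4:43446431-43455129, - strand) encodes a C-type lectin-like ITIM receptor that binds semaphorin 4D. In B2 it was measured at 43.4, 36.2 and 37.6 CPM in control and 59.8, 45.7 and 41.5 in KI mice, and in MemB at 6.22, 15.7 and 31.2 in control and 24.1, 39.1 and 50.4 in KI mice. Control MemB had the lowest mean of the 4 groups, and its replicate 3 overlapped KI MemB. The log2 fold change of KI against control MemB was 1.09 (95% interval -0.01 to 2.20, edgeR adjusted p = 0.452), and it ran from 0.70 without control MemB replicate 1 to 1.79 without replicate 3 of that group (adjusted p = 0.682 and 0.316). Cd72 overlaps Tesk1 on the opposite strand, and since the strand used in counting was not stated, reads of the overlap could not be assigned.

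Cd22 (chr7:30564827-30579767, - strand) encodes a Siglec that sits with the B cell receptor and recruits SHP-1. Its B2 values were 376.5, 395.2 and 482.0 CPM in control and 434.6, 337.8 and 319.8 in KI mice, and its MemB values 316.9, 386.9 and 493.3 in control and 556.2, 451.4 and 433.8 in KI mice. The 4 groups overlapped. Its log2 fold change in KI MemB was 0.27, with a 95% interval of -0.15 to 0.69 that leaves out a fall of the size seen for Siglecg.

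Ptpn6 (chr6:124697670-124715840, - strand), the SHP-1 gene, was at 126.3, 176.6 and 192.6 CPM in control and 219.9, 206.3 and 193.7 in KI for B2, and at 147.9, 147.5 and 190.2 in control and 267.3, 203.8 and 167.0 in KI for MemB. In B2 every KI library lay above every control library, by a narrow margin (as for 5.21% of all genes), and in MemB the groups overlapped. The log2 fold change was 0.39 (95% interval -0.12 to 0.91) in MemB and 0.32 (-0.19 to 0.84) in B2, and neither passed (edgeR adjusted p = 0.598 and 0.959).

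The remaining genes gave overlapping groups in MemB. Fcgr2b (chr1:170786186-170804177, - strand), whose product FcγRIIB is the inhibitory receptor for IgG, was at 56.2, 151.0 and 185.4 CPM in control MemB and 83.3, 175.9 and 169.4 in KI MemB, replicate 1 being the lowest of each. Fcrla (chr1:170745145-170755152, - strand), which encodes an Fc receptor-like protein kept inside the cell, was between 75.2 and 129.1 CPM in control MemB and between 96.8 and 149.4 in KI MemB. Pirb (chr7:3714408-3723416, - strand) was between 103.6 and 150.4 CPM in control MemB and between 121.1 and 194.7 in KI MemB. Fcrl1 was between 28.7 and 43.7 CPM in control MemB and between 15.3 and 36.4 in KI MemB. Their log2 fold changes were 0.13, 0.25, 0.21 and -0.42, with edgeR adjusted p between 0.796 and 0.948. Each of these intervals reaches from below 0 to above 0, and the one for Fcrl1 (-1.29 to 0.45) still allows a 2-fold fall. Reads of Pirb can be shared with the nearly identical Pira genes, which makes its level uncertain. Fcgr2b and Pirb are also expressed by macrophages, whose 10 markers summed to 51.1 to 107 CPM in control MemB and 48.3 to 112 in KI MemB, with Gata6, Cd14 and Fcgr1 at 3 counts or fewer in every library of both groups. Of the 5 macrophage markers tested, 4 had lower means in KI MemB, with a median log2 fold change of -0.67, and 0 were called by edgeR, 2 having an unadjusted p below 0.05. Those were Mrc1, at 0.300 to 13.7 CPM in control MemB and 0 to 0.0651 in KI MemB, without overlap, and Lyz2, at 0.0852 to 8.71 and 0.0341 to 0.184 CPM, and the part of such cells in the levels of Fcgr2b and Pirb was not tested.

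**Figure D2:**
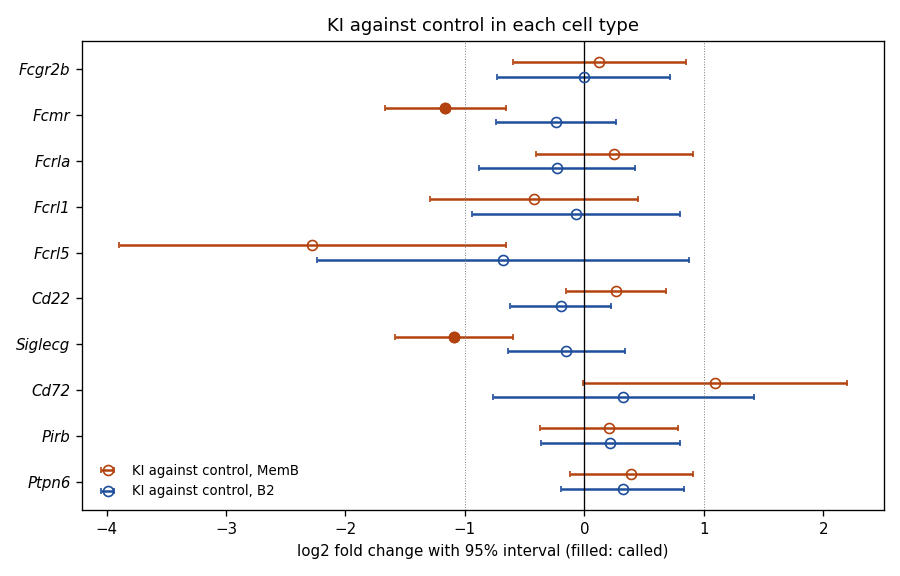
Log2 fold change of KI against control (x axis) with its 95% interval for each gene (y axis), in MemB (orange) and B2 (blue). Filled points passed the call and dotted lines are the fold limit; the intervals of Fcmr, Siglecg and Fcrl5 in MemB lie wholly below 0, Fcrl5 not being called, and every B2 interval reaches across 0.

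In B2, edgeR called 0 of the 10 genes in KI against control, where 0.0066% of all genes were called (1 of 15148). None had an unadjusted p below 0.05, against 5.74% of all genes, and DESeq2 called 0 as well. Log2 fold changes lay between -0.68 for Fcrl5 and 0.33 for Cd72, with a median of -0.11 against -0.03 over all genes. For Fcmr the value was -0.24 (95% interval -0.74 to 0.26) and for Siglecg -0.15 (-0.64 to 0.34), and both intervals leave out a fall as large as the estimate in MemB. Fcgr2b was nearly level (115 ± 38.4 CPM in KI and 116 ± 13.2 in control B2). Fcrla was at 76.2, 111.6 and 119.5 CPM in control B2 and 88.4, 65.1 and 108.6 in KI B2, and Pirb averaged 135 ± 39.3 in control and 157 ± 27.6 in KI B2.

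Whether the KI effect differed between the cell types was tested as an interaction. For Siglecg the effect in MemB minus that in B2 was -0.94 on the log2 scale (95% interval -1.63 to -0.24, edgeR adjusted p = 0.414) and for Fcmr it was -0.93 (-1.64 to -0.22, adjusted p = 0.441). Their intervals lie below 0 gene by gene, but neither passed adjustment over all genes. edgeR called 0 of the 10, where 0.066% of all genes were called (10 of 15148). At an unadjusted p below 0.05 the count was 2, against 8.49% of all genes, and DESeq2 called 0.

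Siglecg and Fcmr were next set against Cd22 within each library, since a ratio of counts does not depend on library size. Numerators and denominators were chosen after the values had been seen, so the ratios restate the levels above. Two-sided exact permutation tests of the ratios of both genes, over Cd22 or over Ptpn6, gave p = 0.1 in MemB, the smallest that 3 against 3 can give, and 0.3 to 1 in B2, and nothing is rested on them. Siglecg counts were 1.15, 0.825 and 0.754 times those of Cd22 in control B2 and 0.781, 0.895 and 1.16 times in KI B2. In control MemB the ratios were 1.21, 0.603 and 0.838, and in KI MemB 0.198, 0.449 and 0.397. The mean was 0.348 ± 0.132 in KI MemB and 0.885 ± 0.307 in control MemB, without overlap. In B2 the means were 0.944 ± 0.192 in KI and 0.910 ± 0.211 in control.

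For Fcmr over Cd22 the B2 ratios were 0.882, 0.681 and 0.478 in control and 0.493, 0.761 and 0.733 in KI mice, and the MemB ratios 0.993, 0.625 and 0.462 in control and 0.157, 0.242 and 0.353 in KI mice. KI MemB again lay below the other 9 libraries. Its mean was 0.251 ± 0.0985 against 0.693 ± 0.272 in control MemB, while in B2 the means were 0.662 in KI and 0.681 in control. With Ptpn6 as denominator, the log2 ratio in KI minus control MemB was -1.47 for Siglecg and -1.57 for Fcmr, and with Cd22 it was -1.37 and -1.47. In B2 the denominators differed: over Ptpn6, Siglecg averaged 1.64 ± 0.236 in KI and 2.39 ± 0.901 in control, and Fcmr 1.14 ± 0.147 and 1.78 ± 0.751, where the ratios over Cd22 were nearly level.

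**Figure D3:**
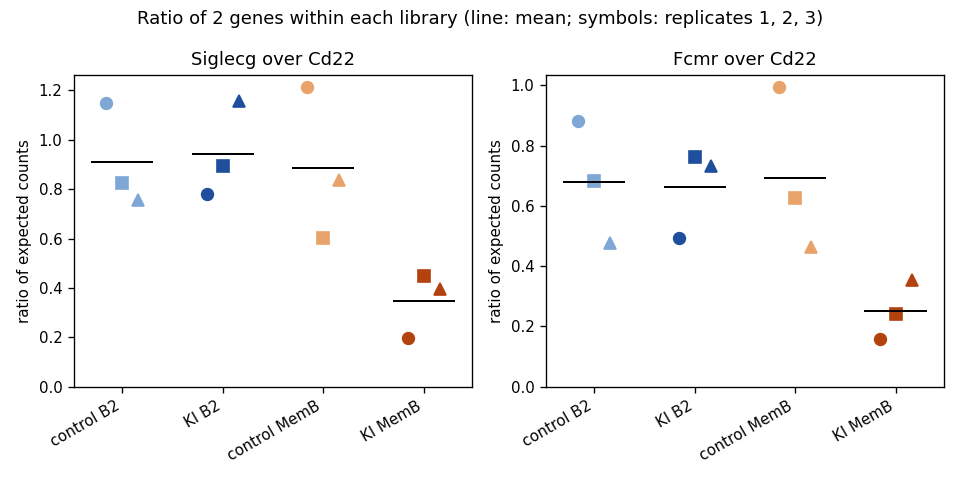
Expected counts of Siglecg (left) and Fcmr (right) divided by those of Cd22 in the same library (y axis, from 0), by group. Symbols are libraries and lines are group means; the KI MemB libraries, at 0.198 to 0.449 and 0.157 to 0.353, are the lowest in both panels.

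MemB were then compared with B2, averaged over the genotypes. Fcrl1 (chr3:87283634-87310241, + strand) encodes an Fc receptor-like protein of mature B cells. Its B2 levels were 109.2, 68.0 and 98.5 CPM in control and 58.0, 63.2 and 141.5 in KI, and its MemB levels were 43.7, 28.7 and 38.2 in control and 30.9, 36.4 and 15.3 in KI. All 6 MemB libraries lay below all 6 B2 libraries. Fcrl1 was 2.82-fold lower in MemB (log2 fold change -1.49, SE 0.31, 95% interval -2.12 to -0.87, edgeR adjusted p = 0.00595). Markers of other B-lineage cells moved in the same comparison. The B-1 sum lay between 152 and 288 CPM in B2 and between 513 and 807 in MemB, without overlap, with 3 of 8 genes called higher (Bhlhe41, Spn and Zbtb32). Of 8 plasma cell markers, 1 was called higher (Jchain), with overlap of the libraries. Jchain was at 1.03 in control mice (edgeR adjusted p = 0.582) and 5.45 in KI mice (adjusted p = 3.48e-05), and its interaction was called (4.43, adjusted p = 0.0463). The part of these markers in the level of Fcrl1 was not tested. Fcrl1 was the only one of the 10 called, where 1.01% of all genes were called (153 of 15148) and 0.37% were called lower. Groups did not overlap for 0.462% of all genes in that direction. Without KI B2 replicate 3, the highest library and the B2 library with the most mast cell transcripts, the log2 fold change was -1.23 and the adjusted p was 0.0601. Without control MemB replicate 1 or 3 it was -1.56 or -1.51, and the call remained (edgeR adjusted p = 0.00870 and 0.0116).

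Siglecg and Fcmr averaged -0.59 and -0.55 in MemB against B2 (edgeR adjusted p = 0.0855 and 0.128) and were not called, while 3 of the 10 genes had an unadjusted p below 0.05 against 12.9% of all genes. Fcrl5 averaged 1.10 and Cd72 -0.76 (adjusted p = 0.391 and 0.403). Fcgr2b, Fcrla, Cd22, Pirb and Ptpn6 lay between -0.02 and 0.24. The median over the 10 genes was -0.01, and it was 0.02 over all genes tested.

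The values within each genotype follow. The difference between them is the interaction given above, which did not pass for any of the 10 genes (edgeR adjusted p = 0.755 for Fcrl5 and 0.877 for Cd72). In control mice, Fcmr and Siglecg were nearly level between MemB and B2 (log2 fold changes -0.08 and -0.12, 95% intervals -0.58 to 0.42 and -0.61 to 0.37). In KI mice they were at -1.01 (edgeR adjusted p = 0.0656) and -1.06 (adjusted p = 0.0345), so that Siglecg alone was called there, where 0.363% of all genes were called and 0.139% were called lower, and 3 genes (Fcrl1, Fcmr and Siglecg) did not overlap, against 7.53% of all genes in that direction. DESeq2 called all 3 in KI mice. The edgeR call of Siglecg there was lost without any of the KI B2 replicates or without KI MemB replicate 1 or 3, its adjusted p running from 0.0181 to 0.296 over the left-out libraries. The KI MemB libraries also enter the comparison of KI with control MemB, so these are not separate evidence. Fcrl1 was at -1.32 in control mice and -1.67 in KI mice (adjusted p = 0.293 and 0.0919). Cd72 was at -1.14 in control mice, without overlap, and -0.37 in KI mice (adjusted p = 0.463 and 0.890). Fcrl5 was at 1.90 in control mice, without overlap, and 0.30 in KI mice (adjusted p = 0.414 and 0.949). Over the left-out libraries the control value of Cd72 ran from -1.83 (without control MemB replicate 3) to -0.73, and that of Fcrl5 from 1.2 (without control MemB replicate 1) to 2.30, neither being called in any of these fits. In control mice 0 of the 10 were called by edgeR or DESeq2, where edgeR called 0.264% of all genes. There 3 had an unadjusted p below 0.05, against 10.6% of all genes. The same 3 (Fcrl1, Cd72 and Fcrl5) did not overlap, against 12.3% of all genes in either direction.

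**Figure D4:**
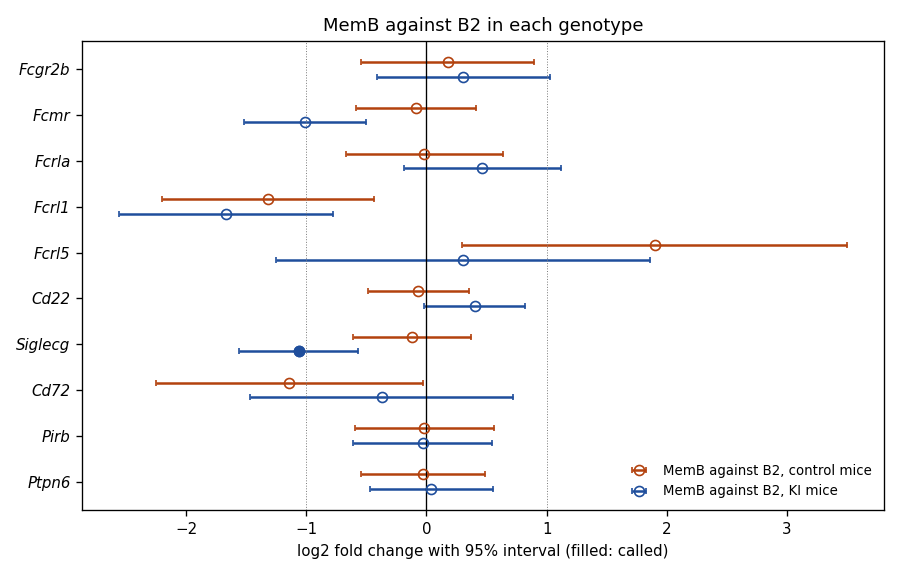
Log2 fold change of MemB against B2 (x axis) with its 95% interval for each gene (y axis), in control mice (orange) and KI mice (blue). Filled points passed the call; Fcrl1 lies below -1 in both genotypes, and Fcmr and Siglecg lie near 0 in control mice and near -1 in KI mice.

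Levels were compared between genes as CPM per kb of merged exon. In control B2, Fcmr led with 151 CPM per kb, followed by Cd22 (82.9), Siglecg (77.9), Fcrla (58.7), Ptpn6 (55.7), Pirb (29.5), Fcgr2b (19.8), Fcrl1 (19.4), Cd72 (9.87) and Fcrl5 (6.12). Neighbours in that order overlapped between libraries from Cd22 down to Ptpn6, and also for Fcgr2b and Fcrl1. Fcmr stood above Cd22 without overlap in control B2, KI B2 (128 against 72.2) and control MemB (143 against 79.1). In KI MemB, Cd22 led with 95.3, and Fcmr was the fourth with 63.7, behind Ptpn6 (71.7) and Fcrla (69.1), these 4 overlapping step by step. Siglecg was the third gene in the other groups and the fifth in KI MemB, with 33.6 CPM per kb, below Fcmr without overlap and level with Pirb (33.6). Fcrl5 was the last gene except in control MemB, where it reached the seventh place with 22.9 CPM per kb, and its libraries there overlapped those of both its neighbours.

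**Figure D5:**
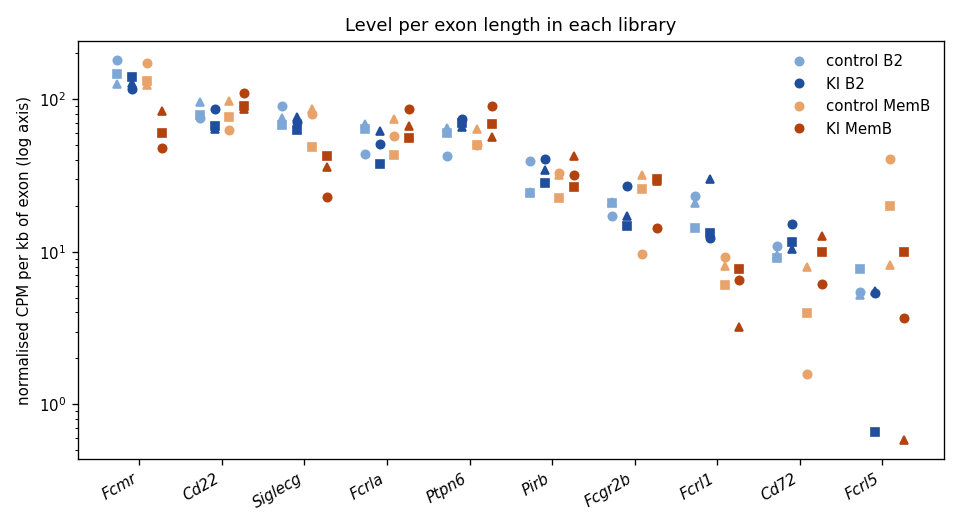
Normalised CPM per kb of merged exon (y axis, log scale) of each gene in every library, with genes ordered by their mean in control B2. Colours are groups and symbol shapes are replicates; KI MemB libraries of Fcmr and Siglecg lie under those of the other groups, and Fcrl5 has the widest scatter.

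The replicates of the 10 genes had a lower median spread than other genes at their level in 3 of the 4 groups and a nearly equal one in KI MemB, a difference that was not tested. The median coefficient of variation over the genes was 19.7% (control) and 18.6% (KI) for B2 and 24.4% (control) and 28.9% (KI) for MemB, against 26.8%, 24.4%, 30.5% and 28.5% over the 3768 genes with mean levels in the same range. Among MemB libraries Fcrl5 had 101% for KI and 71.9% for control, and among B2 libraries 71.7% for KI and 22.5% for control, while Cd72 had 71.2% in control MemB.

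The genes whose log2 CPM was most alike over the 12 libraries were ranked by Pearson's r, as a description only. Libraries of a group share genotype and cell type, which raises r for any genes that differ between groups. For Fcmr they were Socs1 (r = 0.93) and Ighm (0.93), the latter being lowest in KI MemB like Fcmr itself (mean 443 CPM, against 2441 in control MemB). For Siglecg they were Eif2b1 (0.97) and the heavy chain variable gene Ighv1.80 (0.93), and for Fcrl1 they were Rdx (0.90) and Dph5 (0.89). Fcgr2b was most like Isoc2a (0.93), Fcrla like Trpt1 (0.89), Fcrl5 like Camkmt (0.92), Cd22 like Gm43444 (0.90), Cd72 like Gm37052 (0.96), Pirb like Smpd4 (0.90) and Ptpn6 like Tlk1 (0.86). Several of these genes had low counts, which makes r uncertain. Group means ran from 0.370 to 0.795 CPM for Isoc2a, from 0.825 to 4.44 for Trpt1 and from 0.632 to 4.53 for Socs1.

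Other inhibitory receptors and adaptors gave 0 calls of 13 tested (18 listed) in any of the 6 comparisons. Their median log2 fold change was -0.14 in KI MemB, -0.22 in KI B2 and 0.27 in MemB against B2. At an unadjusted p below 0.05 there were 4, 2 and 1 genes, against 11.1%, 5.74% and 12.9% of all genes. These shares of all genes also hold for the lists below, in the same comparisons. In KI MemB 5 of the 13 had higher and 8 lower means. The 4 at an unadjusted p below 0.05 there all had lower means: Cd5, Lilrb4a (-2.72, without overlap), Cd300lf (-2.61) and Ctla4 (-2.24). Cd5, an inhibitory receptor that also marks B-1a cells, was at 8.72 to 14.1 CPM in control MemB and 0.130 to 1.96 in KI MemB (log2 fold change -3.85, edgeR adjusted p = 0.349). T and NK cell markers fell in the same comparison, as given above. Lair1 was at 0.625 to 14.2 CPM in control MemB and 18.5 to 38.7 in KI MemB, without overlap (1.62, adjusted p = 0.601). Btla, an inhibitory receptor for HVEM, was at 173 to 345 CPM in control MemB and 192 to 290 in KI MemB (-0.14, adjusted p = 0.914).

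Inhibitory signalling genes downstream of these receptors gave 0 calls of 16, with medians of -0.02 in KI MemB, -0.19 in KI B2 and 0.17 in MemB against B2, and 2, 0 and 3 genes at an unadjusted p below 0.05. Ptpn22, a tyrosine phosphatase that restrains antigen receptor signalling, had libraries at 170 to 343 CPM in control MemB and 83.5 to 155 in KI MemB (-0.89, edgeR adjusted p = 0.325). Themis2, an adaptor of B cell receptor signalling, was at 121 to 164 CPM in control MemB and 233 to 294 in KI MemB (0.78, adjusted p = 0.339). Neither pair of groups overlapped, and neither gene was called.

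Of 15 other Fc receptors listed, 6 were tested. In KI MemB 1 had a higher and 5 a lower mean, with a median log2 fold change of -2.02 against -0.03 over all genes tested, and edgeR called 0, with 3 at an unadjusted p below 0.05. These included Pigr, the polymeric immunoglobulin receptor (-3.24, adjusted p = 0.336, without overlap), and Trim21, a cytosolic receptor for antibody (-1.75, adjusted p = 0.360). The other was Fcer2a, the gene with the higher mean. Fcer2a, which encodes the low-affinity IgE receptor CD23 of naive B2 cells, was lower in MemB than in B2 (log2 fold change -1.77, SE 0.22, edgeR adjusted p = 4.29e-06). B2 had 249 to 300.3 CPM in control and 247 to 314 in KI mice, and MemB 26.9 to 69.8 in control and 76.7 to 151 in KI mice. KI MemB lay above control MemB without overlap, and the difference of 1.15 was not called (adjusted p = 0.116). Fcgr3, the activating partner of Fcgr2b on myeloid cells, was listed at 0 in all 12 libraries.

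Genes on the ligand side (sialic acid synthesis, Sema4d, MHC class I) gave 0 calls of 11, with 1, 0 and 2 at an unadjusted p below 0.05 in KI MemB, KI B2 and MemB against B2. Cmah, which makes the N-glycolyl sialic acid that mouse CD22 prefers, was at 256 to 379 CPM in B2 and 443 to 586 in MemB, without overlap (log2 fold change 0.73, SE 0.14, edgeR adjusted p = 0.00327), below the fold limit of a call. Among coreceptor and identity genes, Cr2 (CD21), Ighd and Ighm were lower in MemB than in B2, averaged over the genotypes. Their log2 fold changes were -1.23, -3.35 and -1.81 (edgeR adjusted p = 0.00339, 7.29e-18 and 2.78e-12), the last 2 being the genes of the sort gate. Ighm was at -0.79 in control mice (adjusted p = 0.0199, below the fold limit of a call) and -2.83 in KI mice (adjusted p = 7.29e-13). Its mean was 4222 CPM in control B2 and 2441 in control MemB. Ighd was at -2.74 in control and -3.97 in KI mice. The interaction was called for both, at -2.04 for Ighm and -1.23 for Ighd (edgeR adjusted p = 1.08e-05 and 0.0463).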

How the data were processed

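RNA was amplified (Ovation RNA-seq System V2) and sequenced as paired-end reads. Per the labels and the study's methods, the authors used cutadapt 4.5 for trimming, STAR 2.7.11a for alignment to mm39 and RSEM 1.3.3 for the expected counts per gene that they deposited, unnormalised. Values above 0 were fractional in 32.2% of cases and were rounded here. RSEM shares reads among similar genes, so counts of paralogs are uncertain, and reads from amplified RNA do not count molecules, so depth covers counting error only. The 297 rows without a symbol were tested but not named, and 0 columns were left without a sample.

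edgeR 4.0.16 (R 4.3.3) fitted 1 model of 12 libraries with 4 group means, TMM, filterByExpr at a minimum count of 10 and robust quasi-likelihood tests, adjusted over 15148 genes. The SE is the log2 fold change over the square root of F. The edgeR step was tested on simulated data, for KI against control MemB only. DESeq2 1.42.0 was not tested on simulated data. Members and lists were chosen with earlier results of these data known, and all 10 members are named. Alternatives were other normalizations and filters, DESeq2, non-robust fits, fits of only the libraries compared, replicate blocks, ribosomal or immunoglobulin genes left out, replicates 1 and 2 only, and each library left out. Levels per kb used merged exons of GENCODE M39. P-values measure the spread between these libraries. A listed gene is not reported here.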

Additional observations from a re-analysis of the deposited data

How the results depend on the processing

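The count of 2 genes called in KI against control MemB was 1 with upper-quartile normalization (Fcmr; Siglecg adjusted p = 0.0578), 1 with the replicate block (Fcmr; Siglecg 0.0570) and 1 with replicates 1 and 2 only (Fcmr; Siglecg 0.374). It was 0 in a non-robust fit (adjusted p = 0.0759 and 0.128) and 0 in a fit of the MemB libraries only (0.150 and 0.213), and lay between 0 and 2 when each library was left out. Fcmr and Siglecg were each called in 8 of those 12 fits, with log2 fold changes from -1.41 to -0.99 and from -1.30 to -0.87. Fcmr was lost without control MemB replicates 1 or 2 or KI MemB replicates 1 or 2, and Siglecg without control MemB replicates 1 or 3 or KI MemB replicates 1 or 3. Without the filter on low counts the count was 3, with Fcrl5 added. The cause was not tested.

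The call of Fcrl1 in MemB against B2 was lost with replicates 1 and 2 only (0 genes, adjusted p = 0.238) and without KI B2 replicate 3, the counts over the left-out libraries running from 0 to 1. In KI mice, MemB against B2 gave 2 calls with upper-quartile normalization, 3 without the filter, 3 with DESeq2 and 2 with the replicate block by mouse, and 0 in the non-robust fit, in the fit of KI libraries only and with replicates 1 and 2 only. It ran from 0 to 1 over the left-out libraries, 0 without any of the KI B2 replicates or without KI MemB replicate 1. The other comparisons gave 0 calls among the 10 genes under every setting run.

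Over all genes, KI against control MemB gave 43 calls, against 479 with DESeq2, 90 without the filter, 22 in the non-robust fit, 15 in the fit of MemB libraries only and 24 with replicates 1 and 2 only. DESeq2 gave 583 in MemB against B2 (153 with edgeR), 42 in KI against control B2 (1), 209 in the interaction (10), 398 in MemB against B2 in control mice (40) and 396 in KI mice (55). The edgeR count without the filter was 236, 8, 44, 96 and 105 in the same order.

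Changes of sign were seen only in comparisons in which the gene was not called. Fcgr2b in KI against control B2 (-0.01) was 0.040 with upper-quartile normalization, 0.014 without the filter, 0.011 with a minimum count of 50, 0.0095 in the fit of B2 libraries only, 0.072 with the replicate block and 0.15 with replicates 1 and 2 only. With replicates 1 and 2 only, Cd22 in KI against control B2 was 0.015, Fcgr2b in MemB against B2 was -0.0062 and Fcrl1 in the interaction was 0.44. Ptpn6 in MemB against B2 was -0.054 with upper-quartile normalization. Fcrl5 in MemB against B2 of KI mice was -0.12 with the replicate block and -0.21 with the block by mouse. With each library left out, Fcgr2b ran from -0.23 to 0.47 in KI against control MemB, from -0.31 to 0.16 in KI against control B2 and from -0.23 to 0.47 in the interaction, Fcrl1 from -0.60 to 0.15 in KI against control B2 and from -0.60 to 0.18 in the interaction, Pirb from -0.13 to 0.11 in MemB against B2 and from -0.29 to 0.14 in the interaction, and Ptpn6 from -0.091 to 0.080 in MemB against B2 and from -0.12 to 0.22 in the interaction. In MemB against B2, Fcmr ran from -0.23 to 0.080 and Siglecg from -0.28 to 0.093 in control mice, and Fcrl5 from -0.85 to 0.83 in KI mice.

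Deviations of same-numbered libraries from their group means correlated between -0.01 and 0.03, so the replicate numbers were not taken to pair the samples. With a library left out, the median log2 fold change of all genes lay between -0.11 and 0.11. With 3 libraries per group and a common biological coefficient of variation of 91.4%, intervals are wide.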
